A study of Homo sapiens with 2 samples.

Results

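The genes described here are targets and regulators of the transcription factor ATF4 together with cytosolic tRNA synthetase genes, 34 symbols chosen by name. A transcript cluster, the gene-level unit of the array, was taken where its annotation gave 1 of these symbols in its older or newer form (WARS for WARS1). That held for 33 of the 34 symbols, each with 1 cluster, out of 22465 named genes and 67528 transcript clusters. The cluster of ATF5 carries a second symbol and was not used. RNA came from a cetuximab-resistant line (labelled FaDuCR) and from untreated parental FaDu cells, with 1 Affymetrix Human Transcriptome Array 2.0 for each. FaDu is an established cell line from a human squamous carcinoma of the pharynx. Cetuximab is an antibody against the epidermal growth factor receptor. The labels give neither how resistance was obtained, nor a dose, nor whether the drug was present at harvest, nor whether the resistant line is 1 clone.

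ATF4 is the effector of the integrated stress response. Kinases that sense amino acid shortage, unfolded protein, viral RNA or lack of haem phosphorylate the initiation factor eIF2, which lowers translation in general and raises translation of ATF4 mRNA. ATF4 then binds C/EBP-ATF response elements, often with a C/EBP partner, and switches on genes for amino acid synthesis, amino acid uptake and tRNA charging. ATF4 is controlled largely at translation, so its mRNA level is not a measure of its protein.

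Values are the authors' deposited log2 expression values, and a difference is the resistant value minus the parental value on the same scale. With 1 array per line there is no spread between replicates and no test, so every difference is between 2 arrays and carries no error. A difference between the lines cannot be told apart from one between cultures, passages or arrays. A gene is called higher or lower at 2-fold, 1 log2 unit. The background level, the 95th percentile of 364 olfactory receptor genes, was 5.03 on the resistant array and 5.09 on the parental array. The differences of these dim genes had an SD of 0.42 over genes, which is not a replicate error. Epithelial markers lay above background for 7 of 7 measured genes on both arrays, although KRT14 stood at 5.17 on the resistant array against 11.39 on the parental array. Of 4 leukocyte markers, 0 lay above background on either array, and of 6 fibroblast markers 1 did on each array, COL1A1 at 5.26 resistant and 5.22 parental. Of 4 endothelial markers, 2 lay above background on the resistant array and 1 on the parental array. CDH5, the endothelial cadherin gene, stood at 6.98 resistant and 6.14 parental, and PECAM1, another endothelial adhesion gene, at 5.17 resistant and, below background, 3.74 parental. The part of such markers in the results below was not tested.

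The genes did not move as a block. Of the 33 measured, 7 were higher by 2-fold or more in the resistant line (SLC6A9, NARS1, SLC1A5, GARS1, PSAT1, PSPH and TRIB3) and 3 lower by 2-fold or more (WARS1, SLC7A5 and ASNS). Over all named genes, 8.32% were higher and 7.40% lower by that much, 15.7% in all, and many of these genes were dim. A brightness level of 5.98, the median over all genes of the higher of the 2 values, was passed by 32 of the 33 members. Past that brightness, 16.0% of genes were higher by 2-fold or more and 14.1% lower, together 30.0%. The members' shares were 21.2% higher and 9.09% lower, so the number of calls in all is near that of genes above the brightness level. Many members lay far above that level, up to 16.03 on the resistant array, and no share was computed for brighter genes alone. In such bulk samples, fewer cells with a transcript and less RNA per cell cannot be told apart. The median difference was 0.13 over the members and -0.01 over all named genes. In direction, 17 members had a positive difference, 15 a negative one and 1 a difference of 0.00. The calls nearest the threshold were TRIB3 at 1.05 and PSPH at 1.06, and just outside it lay STC2 at 0.89 and SLC1A4 at 0.87.

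**Figure D1:**
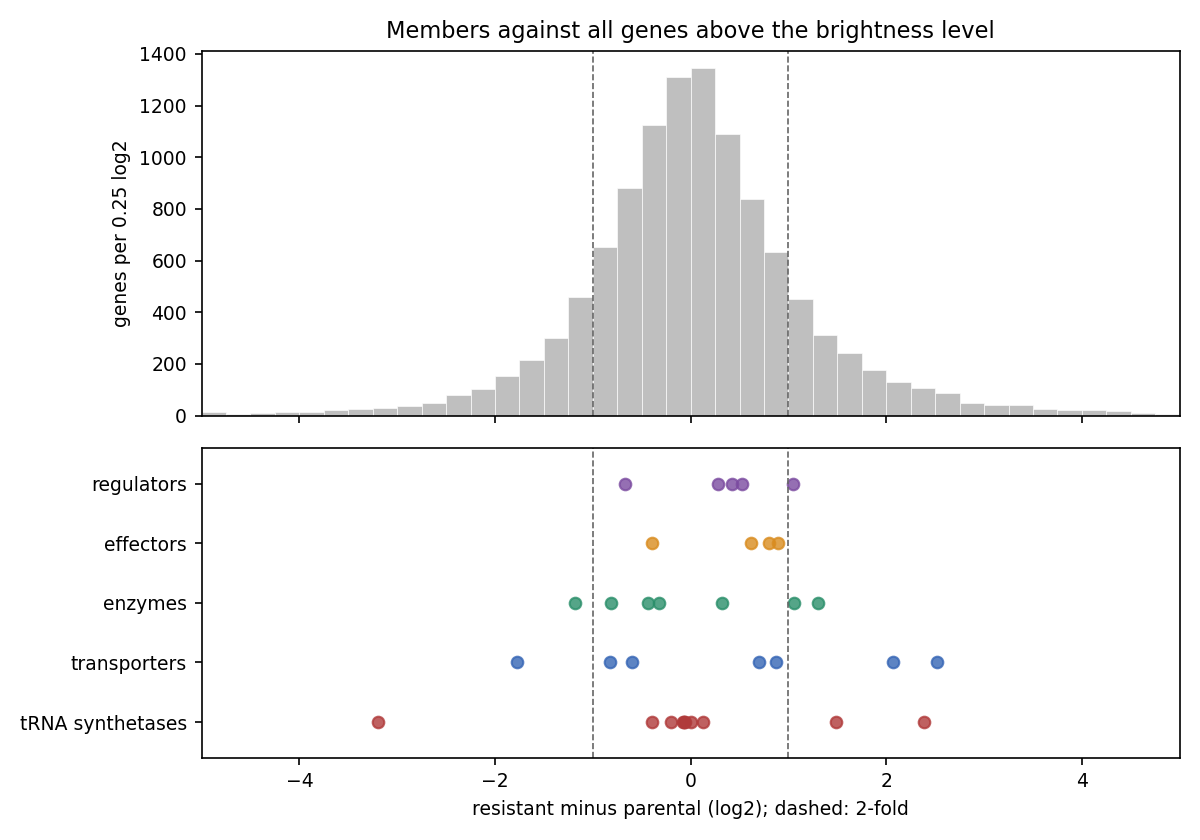
Upper panel, the number of genes above the brightness level in bins of 0.25 log2 units of the difference, resistant minus parental; bins beyond 5 log2 units are not drawn. Lower panel, the 33 measured members by role on the same axis, where 23 lie between the dashed 2-fold lines, 7 to the right of them and 3 to the left.

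The promoters of these genes were searched for the core of the C/EBP-ATF response element. RefSeq promoter windows (GRCh38.p14) were found for 30 of the 34 symbols and not for PSPH, SHMT2, ALDH1L2 and LARS1. The 8 letters TGATGNAA, searched on both strands, lay within the 250 bases upstream of a start of 7 of these 30 genes (23.3%), against 3.89% of 27305 genes. The 30 genes have 48 windows, since some have several starts, and the 27305 genes have 35116 windows, of which 3.14% held a match. The members were chosen by name, partly as known ATF4 targets. Their higher share may follow from that choice and is no result of these arrays. The following stretches of 80 upstream bases are shown because they carry these matches in genes that differed in opposite directions, with the match in capitals, 5′ to 3′ along the gene's strand.
ASNS: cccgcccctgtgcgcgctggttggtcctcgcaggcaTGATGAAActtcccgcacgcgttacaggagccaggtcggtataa
SLC1A5: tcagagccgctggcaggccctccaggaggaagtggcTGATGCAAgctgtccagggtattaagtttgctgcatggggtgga
GARS1: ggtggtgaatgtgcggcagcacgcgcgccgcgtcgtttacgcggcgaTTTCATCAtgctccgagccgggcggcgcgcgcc
CEBPG: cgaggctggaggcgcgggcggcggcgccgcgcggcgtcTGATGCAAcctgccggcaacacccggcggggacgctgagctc
CHAC1: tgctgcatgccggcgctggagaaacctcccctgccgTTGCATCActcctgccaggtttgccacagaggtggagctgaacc
AARS1: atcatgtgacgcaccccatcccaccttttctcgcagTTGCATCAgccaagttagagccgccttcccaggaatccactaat
IARS1: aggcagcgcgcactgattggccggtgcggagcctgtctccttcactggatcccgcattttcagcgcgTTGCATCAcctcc

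The ASNS stretch is chr7:97872433-97872512 on the minus strand, the SLC1A5 stretch chr19:46784868-46784947 (minus), and the GARS1 stretch chr7:30594798-30594877 (plus). The CEBPG stretch is chr19:33374033-33374112 (plus), CHAC1 chr15:40953226-40953305 (plus), AARS1 chr16:70289650-70289729 (minus) and IARS1 chr9:92293698-92293777 (minus). Relative to the start, the ASNS match runs from base -68 to base -61 and the SLC1A5 match from base -97 to base -90, both in the sense direction, whereas in GARS1, CHAC1, AARS1 and IARS1 the match is on the opposite strand. With the 50 bases after the start included, a window chosen after the matches were seen, 13 of the 30 genes held a match (43.3%), against 4.46% of all genes. The added genes were SLC3A2, SLC1A4, SLC7A1, NARS1, MARS1 and CARS1. The 7 genes with an upstream match had a median difference of 0.42, with 2 at least 2-fold higher and 1 lower. The 22 measured genes without one had a median of 0.14, with 4 higher and 2 lower. In the longer window the order of the medians was reversed. There the 13 genes with a match had a median of 0.00, with 3 higher and 1 lower. The 16 measured genes without a match in it had a median of 0.30, with 3 higher and 2 lower. A match says that the letters are present and nothing about binding.

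Among the transcription factors and regulators, only TRIB3 reached 2-fold. ATF4 itself (chromosome 22) stood at 12.28 in the resistant line and, rounded, 12 in the parental line, a difference of 0.28. CEBPB, a C/EBP factor that partners ATF4, stood at 7.68 resistant and 7.15 parental, and CEBPG, a C/EBP protein with no activation domain of its own that also dimerises with ATF4, at 8.29 resistant and 7.87 parental. These 3 dimerising factors were all a little higher, by 0.28 to 0.53 log2 units, less than the median absolute difference of 0.60 of genes above the brightness level. DDIT3, the gene of the stress-induced factor CHOP, stood at 5.54 resistant and 6.21 parental, a difference of -0.67. It was dim on both arrays, within the range of olfactory receptor genes up to their 99th percentile (7.10 resistant, 6.59 parental). TRIB3, a pseudokinase that CHOP and ATF4 induce and that restrains ATF4, stood at 7.73 resistant and 6.68 parental, 2.07-fold higher. CHOP and its known target thus had opposite signs, with the TRIB3 difference near the threshold. Of the other C/EBP genes, CEBPA lay above background at 6.29 resistant and 6.22 parental, and CEBPD and CEBPE lay below background on both arrays.

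The stress effectors and the surface and secreted proteins gave no 2-fold call. DDIT4, an inhibitor of mTORC1 known as REDD1, stood at 8.71 resistant and 9.10 parental. CHAC1, an enzyme that degrades glutathione, stood at 7.29 resistant and 6.67 parental, and its promoter carries the match shown above. VLDLR, a lipoprotein receptor, stood at 6.97 resistant and 6.17 parental. STC2, a secreted glycoprotein, stood at 7.74 resistant and 6.85 parental. CHAC1, VLDLR and STC2 were higher by 0.62 to 0.89 log2 units and DDIT4 lower by a difference of -0.39, so this small group had a median of 0.71 with 0 of 4 genes past 2-fold. VLDLR also lay within that olfactory receptor range on both arrays.

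**Figure D2:**
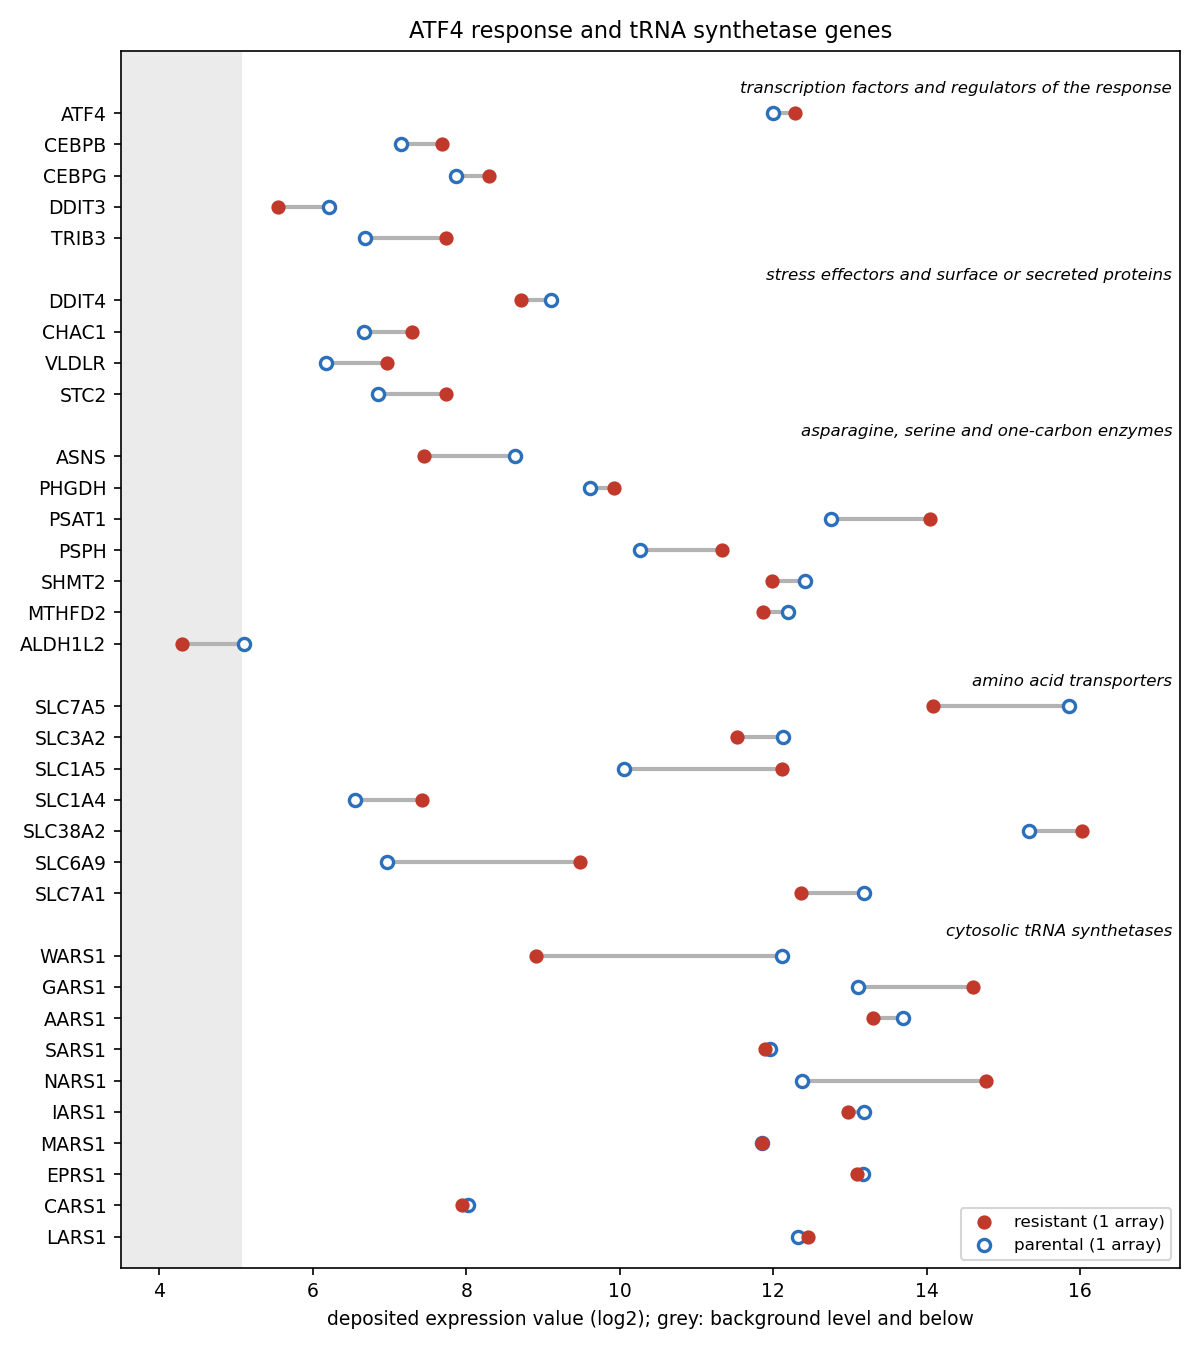
Deposited log2 expression value of each measured gene on the resistant array (filled points) and the parental array (open points), grouped by role, with the mean background level of both arrays shaded. The resistant points of SLC6A9, SLC1A5, NARS1 and GARS1 lie far to the right of their parental points. Those of WARS1 and SLC7A5 lie far to the left of theirs, and 7 of 10 tRNA synthetases have points that nearly coincide.

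The enzymes of asparagine, serine and one-carbon synthesis were divided. ASNS, which makes asparagine from aspartate and glutamine and is a classic ATF4 target, was 2.27-fold lower at 7.45 in the resistant line and 8.63 in the parental line. PHGDH, the first enzyme of serine synthesis, stood at 9.93 resistant and 9.61 parental, a difference of 0.32. PSAT1, the transaminase that follows, was 2.46-fold higher at 14.05 resistant and 12.75 parental. PSPH, the phosphatase that releases serine, was 2.08-fold higher at 11.33 resistant and 10.27 parental. The serine-making enzymes thus all had positive differences as deposited, of which those of PSAT1 and PSPH passed 2-fold. Signal of PSPH is uncertain because a near-identical pseudogene exists in the genome. Of the 24 genes next to PSPH on chromosome 7, 12 on each side, 13 lay above background. Of these 13 neighbours, 6 were at least 2-fold higher and 0 lower, with a median of 0.93, and their part in the PSPH difference was not tested. The 11 neighbours of PHGDH above background had a median of 0.55, and with that median subtracted, a calculation added after the data were seen, the PHGDH difference was -0.23.

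The mitochondrial folate enzymes downstream of serine had negative differences. SHMT2, which splits serine into glycine and a one-carbon unit, stood at 11.98 resistant and 12.42 parental. MTHFD2, the next enzyme of the mitochondrial folate path, stood at 11.87 resistant and 12.19 parental. Their differences were -0.44 and -0.32, both below 2-fold. The neighbours of SHMT2 and MTHFD2 had medians of -0.66 and -0.44, and with these subtracted the differences turned to 0.22 and 0.12. ALDH1L2, which turns formyl-folate into carbon dioxide in mitochondria, was below background at 4.29 in the resistant line and at 5.10 in the parental line, so it was at least 1.05-fold lower. In the wider list of one-carbon and glycine enzymes, 12 of 14 were measured. Of these, 1 (8.33%) was at least 2-fold higher and 2 (16.7%) lower, with a median of -0.34. The shares over all named genes were 8.32% and 7.40%, and above the brightness level 16.0% and 14.1%. MTHFD1, the cytosolic folate enzyme on chromosome 14, was 4.82-fold lower at 13.28 resistant and 15.55 parental. GLDC, the glycine decarboxylase, was at least 4.37-fold lower, at 4.75, below background, in the resistant line and 7.16 in the parental line. TYMS, thymidylate synthase on chromosome 18, was 2.1-fold higher at 12.28 resistant and 11.21 parental, and SHMT1, the cytosolic counterpart of SHMT2, stood at 9.06 resistant and 9.80 parental. The neighbours of MTHFD1 and GLDC were low as well, with medians of -1.12 and -2.16 over 16 and 15 genes above background, and their part was not tested.

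Amino acid transporters held the largest positive difference of the set, that of SLC6A9, and the second lowest, that of SLC7A5. SLC6A9, the glycine transporter GlyT1, was 5.74-fold higher at 9.48 in the resistant line and 6.96 in the parental line. SLC1A5, the neutral amino acid exchanger ASCT2 that carries glutamine, was 4.2-fold higher at 12.12 resistant and 10.05 parental. Its relative SLC1A4, which carries serine and alanine, stood at 7.42 resistant and 6.55 parental, 1.83-fold higher and short of the threshold. Of genes above background, 2.7% had a difference at least as high as that of SLC6A9 and 4.14% at least as high as that of SLC1A5. SLC38A2, the sodium-coupled transporter SNAT2 that responds to amino acid shortage, stood at 16.03 resistant and 15.33 parental, a difference of 0.70.

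The leucine transporter was lower in its light chain. SLC7A5, the light chain LAT1, which exchanges glutamine for leucine and other large amino acids, was 3.41-fold lower at 14.09 in the resistant line and 15.86 in the parental line. SLC3A2, the heavy chain 4F2hc that brings LAT1 and several related light chains to the surface, stood at 11.53 resistant and 12.13 parental, 1.52-fold lower. SLC7A1, the cationic transporter CAT1 that carries arginine and lysine, stood at 12.36 resistant and 13.18 parental, 1.77-fold lower. The sodium-dependent carriers of the set (SLC6A9, SLC1A5, SLC1A4 and SLC38A2) all had positive differences and SLC7A5, SLC3A2 and SLC7A1 all had negative ones, a split noticed after the values were seen. It did not hold throughout the wider list of transporters. There SLC6A15 (lower) and SLC7A11 (higher) had the opposite sign to their relatives here, and SLC1A1, SLC1A3 and SLC38A1 (all higher) the same sign. Around SLC3A2, 6 of 13 neighbouring genes above background were at least 2-fold higher and 0 lower, so the gene lay below its surroundings. With the neighbours' median subtracted, the SLC3A2 difference was -1.42.

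The 10 calls differed in how far they stood out among genes above background and from their own surroundings. As low as SLC7A5 were 4.2% of these genes, and as low as ASNS 9.27%. As high as NARS1 were 3.03%, as high as GARS1 7.7% and as high as PSAT1 9.43%. PSPH and TRIB3, with 12.6% and 12.8% of genes as high, stood out least. The neighbours of ASNS had a median of -0.01 over 17 genes above background, those of SLC7A5 0.15 over 16 and those of SLC6A9 0.24 over 21. For these 3 genes the difference was therefore not shared by the median of the surrounding genes. SLC1A5 had neighbours with a median of 0.63 over 16 genes, of which 5 were at least 2-fold higher, and PSAT1 neighbours with a median of 0.36 over 14. The neighbours of TRIB3 had a median of 0.32 over 11 genes. With the neighbours' median subtracted, PSAT1 stood at 0.94, TRIB3 at 0.73 and PSPH at 0.13, all short of 2-fold, while SLC6A9, SLC1A5, GARS1, WARS1, SLC7A5 and ASNS kept their calls.

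**Figure D3:**
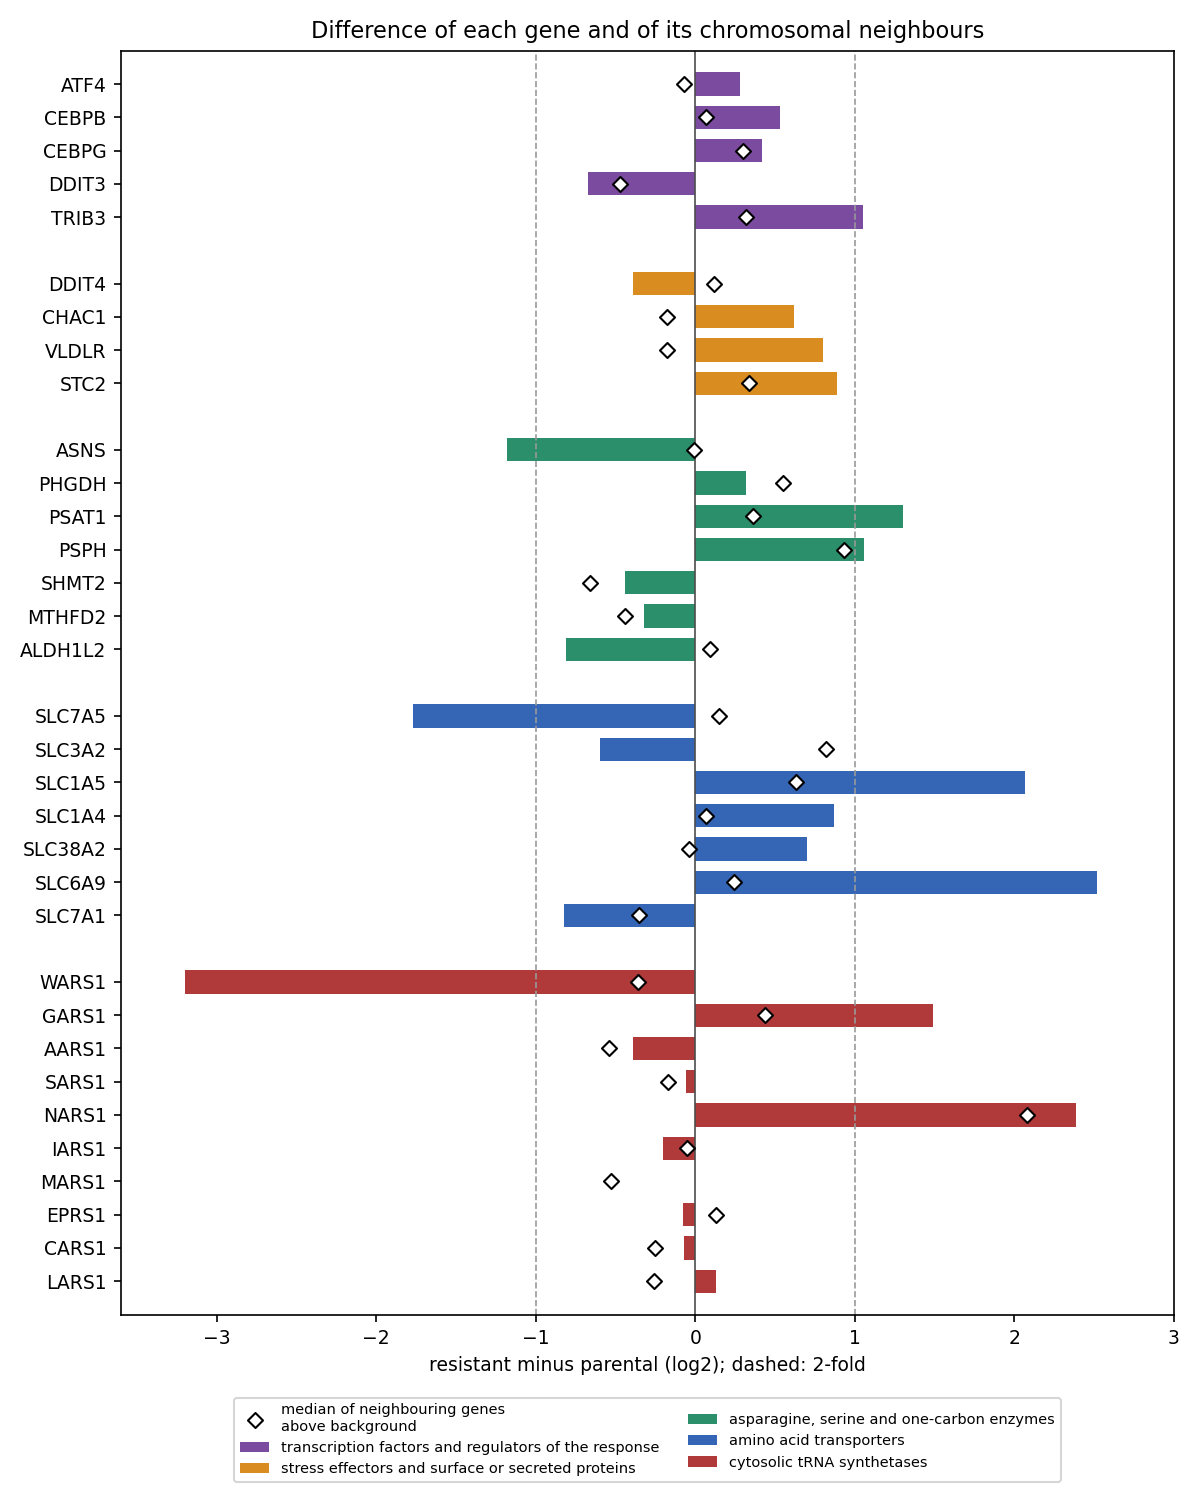
Difference of each measured gene (bars, resistant minus parental, log2, coloured by role) and the median difference of the up to 24 genes next to it on its chromosome that lay above background (diamonds). The diamond of NARS1 lies at 2.08, near the end of its bar at 2.39, while those of WARS1, SLC6A9 and SLC7A5 lie between -0.36 and 0.24, far from the ends of their bars.

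Of 19 further amino acid transporters, none of them among the 34 symbols, 6 (31.6%) were at least 2-fold higher and 1 (5.26%) lower, with a median of 0.30. Over all named genes, 8.32% were higher and 7.40% lower by that much, and above the brightness level 16.0% and 14.1%. Above the brightness level lay 10 of them, with a median of 1.52. That level applies to the higher of the 2 values. SLC1A1 passed it on the resistant array only and SLC6A15 on the parental array only. SLC7A11, the cystine importer xCT that uses the same heavy chain SLC3A2, was 20.3-fold higher at 14.40 resistant and 10.06 parental. SLC36A4, a proton-linked amino acid transporter family member, was 6.11-fold higher at 11.07 resistant and 8.46 parental. SLC1A3, a glutamate and aspartate transporter, was 5.9-fold higher at 9.88 resistant and 7.32 parental. In the other direction, SLC6A15, a carrier of branched-chain amino acids and proline, was at least 11-fold lower, at 4.34, below background, in the resistant line and 8.49 in the parental line. The heavy chain SLC3A2 and its partners SLC7A5 and SLC7A11 thus differed widely: SLC7A5 lower, SLC7A11 higher and SLC3A2 between them. Other SLC7 genes of the list gave no 2-fold call. SLC7A6 stood at 11.32 resistant and 11.43 parental, SLC7A2 and SLC7A8 had differences of 0.52 and -0.66, and SLC7A7 lay below background on both arrays.

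The tRNA synthetases charge each tRNA with its amino acid. Most of the 10 cytosolic members were nearly the same on both arrays and 3 differed by much. In 7 of the 10, the difference was within 0.5 log2 units. EPRS1, the fused glutamyl and prolyl synthetase, stood at 13.09 resistant and 13.17 parental. MARS1, the methionyl synthetase, had 11.85 on both arrays, and LARS1, the leucyl synthetase and a leucine sensor of mTORC1, stood at 12.45 resistant and 12.32 parental. IARS1, the isoleucyl synthetase, stood at 12.98 resistant and 13.18 parental. EPRS1, MARS1, LARS1 and IARS1 all belong to the multisynthetase complex, and the differences of these 4 ran from -0.20 to 0.13. Of the complex's other synthetases, KARS1 and QARS1 had differences of -0.01 and 0.01, whereas RARS1, the arginyl synthetase, stood at 14.03 resistant and 13.20 parental, a difference of 0.83. AIMP1, a scaffold of that complex and the only scaffold gene measured, stood at 10.13 resistant and 10.08 parental.

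Free synthetases outside the complex included further genes with little difference. SARS1, the seryl synthetase, stood at 11.90 resistant and 11.96 parental. CARS1, the cysteinyl synthetase, stood at 7.95 resistant and 8.02 parental. AARS1, the alanyl synthetase, stood at 13.30 resistant and 13.69 parental, a difference of -0.39. Its promoter carries the response element match shown above, as does that of IARS1. The signs of the SARS1 and CARS1 differences, -0.06 and -0.07, turned under quantile normalisation. With the neighbours' median subtracted, the signs of AARS1, SARS1 and CARS1 turned, to 0.15, 0.11 and 0.18.

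GARS1 and NARS1 were higher. GARS1, the glycyl synthetase, whose single gene serves cytosol and mitochondria, was 2.81-fold higher at 14.60 in the resistant line and 13.11 in the parental line. NARS1, the asparaginyl synthetase on chromosome 18, was 5.24-fold higher at 14.77 resistant and 12.38 parental. Of the 11 neighbours of NARS1 above background, 10 were at least 2-fold higher and 0 lower, with a median of 2.08. On chromosome 18 as a whole, 36.6% of 191 genes above background were at least 2-fold higher and 8.9% lower. The NARS1 difference thus lay near the median of the genes beside it, and with that median subtracted it was 0.31. For GARS1 the neighbours' median was 0.44 over 14 genes, of which 5 were at least 2-fold higher. The part of these neighbourhoods in the differences was not tested.

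WARS1, the tryptophanyl synthetase on chromosome 14, had the largest difference of the whole set in size. It was 9.19-fold lower at 8.91 in the resistant line and 12.11 in the parental line, and 0.999% of genes above background were as low. WARS1 is known as the synthetase that interferon gamma induces. Its promoter held no match to the ATF4 element in 250 upstream bases, and 1 match to the core of the interferon-stimulated response element. That motif, searched on both strands with overlapping matches counted once per gene, lay upstream of 2 of 30 members, WARS1 and ATF5, and of 3.71% of all genes. The WARS1 stretch is shown because it carries that match in the gene with the largest difference, with the match in capitals, chr14:100375358-100375437 on the minus strand of GRCh38.p14.
WARS1: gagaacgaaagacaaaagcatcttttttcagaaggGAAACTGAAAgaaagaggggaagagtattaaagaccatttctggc

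Of 15 genes listed as induced by interferon gamma, 14 were measured. Of these, 6 (GBP1, TAP1, IRF1, PSMB9, NMI and PSMB8) were at least 2-fold lower, a share of 42.9%, and 1 (7.14%) was higher. By that much, 7.40% of all named genes and 14.1% of genes above the brightness level were lower. Their median was -0.44, and -1.40 over the 7 that passed the brightness level. That level applies to the higher of the 2 values, and IRF1 and PSMB9 passed it on the parental array only. The -1.40 thus rests partly on genes that passed through the array where they were high. GBP1, an interferon-induced GTPase, was 5.5-fold lower at 6.50 resistant and 8.96 parental. TAP1, a peptide transporter of antigen presentation, was 3.48-fold lower at 6.26 resistant and 8.06 parental, and IRF1, an interferon-induced transcription factor, 3.14-fold lower at 5.47 resistant and 7.12 parental. In the other direction, GBP3 was 3.27-fold higher at 9.42 resistant and 7.71 parental. TAP1, PSMB9 and PSMB8 all lie on chromosome 6, among neighbours above background with medians of -0.63, -0.50 and -0.67. For GBP1, NMI and IRF1 the neighbours' medians were 0.21, -0.28 and -0.18. The part of these neighbours was not tested. Around WARS1, 8 neighbouring genes above background had a median of -0.36, with 2 at least 2-fold lower and 0 higher. Over chromosome 14, 39.2% of 480 genes above background were at least 2-fold lower and 4.38% higher, with a median of -0.62. With the neighbours' median subtracted the WARS1 difference was -2.84. Neither the interferon response nor the chromosome was tested as a source of it.

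**Figure D4:**
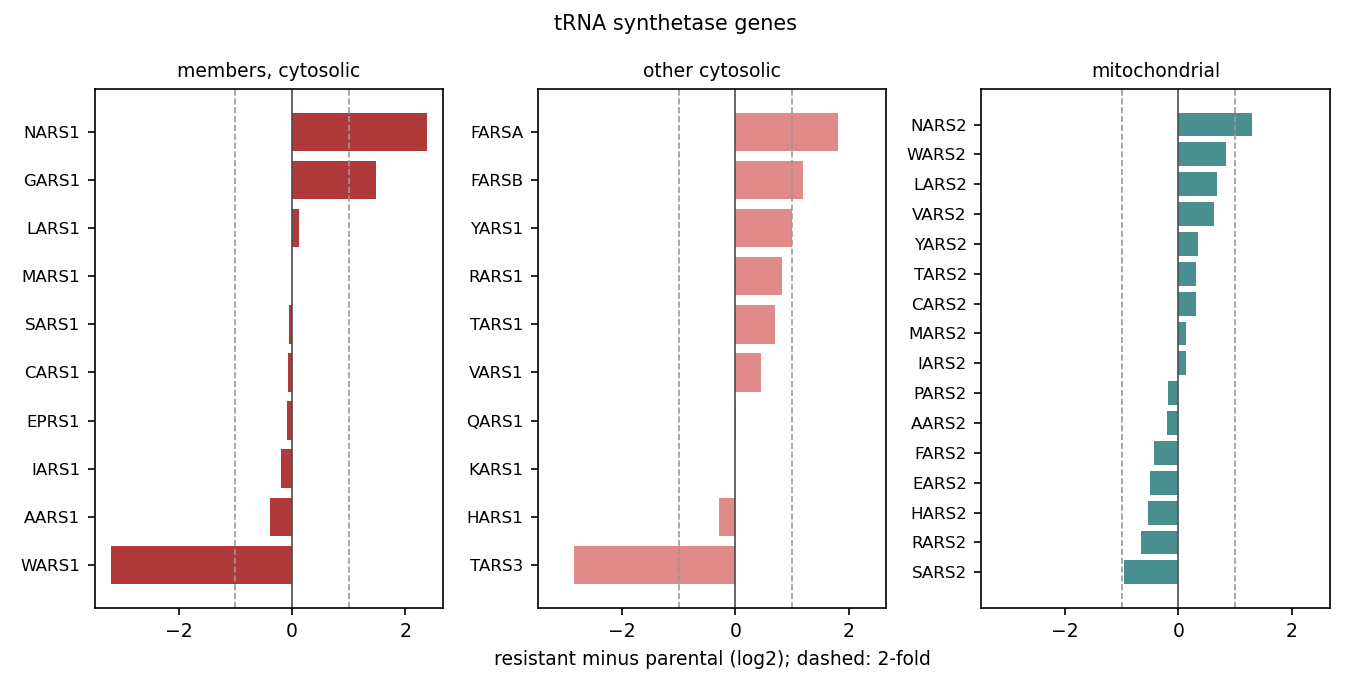
Difference of tRNA synthetase genes (bars, resistant minus parental, log2) for the 10 cytosolic members, 10 other cytosolic genes and 16 mitochondrial genes, each panel sorted by size. WARS1 and TARS3 lie far to the left at -3.20 and -2.84, and NARS1 and FARSA far to the right at 2.39 and 1.81.

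Of 11 cytosolic synthetases that are not among the 34 symbols, 10 were measured. Of these, 3 (30%) were at least 2-fold higher and 1 (10%) lower, with a median of 0.58. Among all genes above the brightness level, which all 10 passed, 16.0% were higher and 14.1% lower by that much. FARSA and FARSB, the subunits of the phenylalanyl synthetase, were higher together, FARSA 3.51-fold at 12.74 resistant and 10.93 parental and FARSB 2.28-fold at 14.41 resistant and 13.22 parental. YARS1, the tyrosyl synthetase, stood at 11.05 resistant and 10.05 parental, exactly at the threshold. TARS3, a second cytosolic threonyl synthetase, was 7.16-fold lower at 6.66 resistant and 9.50 parental. TARS3 and the FARS genes lay among neighbours that shifted the same way, with medians of -1.43, 0.72 for FARSA and 0.88 for FARSB, and their part was not tested. Over all 20 cytosolic synthetase genes measured, 5 were at least 2-fold higher, 2 lower, 11 within 0.5 log2 units, and the median was 0.01.

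Mitochondrial synthetases are encoded by separate nuclear genes. Of 17 listed, 16 were measured, with 1 (6.25%) at least 2-fold higher, 0 lower and a median of 0.13. Among all genes above the brightness level, which all 16 passed, 16.0% were higher and 14.1% lower by that much. NARS2, the mitochondrial asparaginyl synthetase on chromosome 11, was 2.45-fold higher at 10.64 resistant and 9.35 parental. The 18 neighbours of NARS2 above background had a median of 0.73, and their part in its difference was not tested. WARS2, the mitochondrial tryptophanyl synthetase, stood at 9.52 resistant and 8.69 parental, with the opposite sign to WARS1. SARS2 stood at 8.02 resistant and 8.98 parental, and LARS2 at 10.21 resistant and 9.53 parental.

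Upstream of ATF4, the genes of all 4 eIF2 kinases had positive differences, 2 of them past 2-fold. All 18 genes of the list of eIF2 kinases, eIF2, its exchange factor eIF2B and phosphatase subunits were measured. Of these, 3 (16.7%) were at least 2-fold higher and 1 (5.56%) lower, with a median of 0.29. Above the brightness level, 16.0% of all genes were higher and 14.1% lower by that much. EIF2AK3, the endoplasmic reticulum kinase PERK, was 3.56-fold higher at 9.02 resistant and 7.19 parental. EIF2AK4, the amino acid sensor GCN2, was 2.36-fold higher at 10.87 resistant and 9.63 parental. The other kinases, EIF2AK1 (the haem-regulated HRI) and EIF2AK2 (PKR, activated by double-stranded RNA), had differences of 0.54 and 0.43. Both lie below the median absolute difference of 0.60 of genes above the brightness level. GCN1, which GCN2 needs for activation, was 2.36-fold lower at 11.14 resistant and 12.38 parental. DNAJC3, an inhibitor of eIF2 kinases also known as P58IPK, was 2.62-fold higher at 11.86 resistant and 10.47 parental. GCN2 and its activator GCN1 thus had opposite signs, while PERK and the inhibitor DNAJC3 had the same sign. The neighbours above background had medians of 0.32 for EIF2AK3, 0.28 for EIF2AK4, 0.26 for EIF2AK1 and 0.64 for EIF2AK2. For DNAJC3 that median was 0.80 and for GCN1 -0.38, and the part of the neighbours was not tested. mRNA levels say nothing of eIF2 phosphorylation, which was not measured.

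Other genes known to respond to ATF4 also went both ways. Of 29 listed, 27 were measured, with 4 at least 2-fold higher (SLC7A11, KLHL24, CTH and SLC38A1), 2 lower (ATF3 and PYCR1) and a median of 0.02. The shares were 14.8% higher and 7.41% lower. Both lie between those of all named genes (8.32% and 7.40%) and of genes above the brightness level (16.0% and 14.1%). CTH, which makes cysteine from cystathionine, was 2.89-fold higher at 7.65 resistant and 6.12 parental. KLHL24, a ubiquitin ligase adaptor, was 5.82-fold higher at 8.56 resistant and 6.02 parental. ATF3, a stress-induced transcription factor, was 2.73-fold lower at 6.16 resistant and 7.61 parental. SLC7A11 is known to respond to NRF2 as well as to ATF4.

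**Figure D5:**
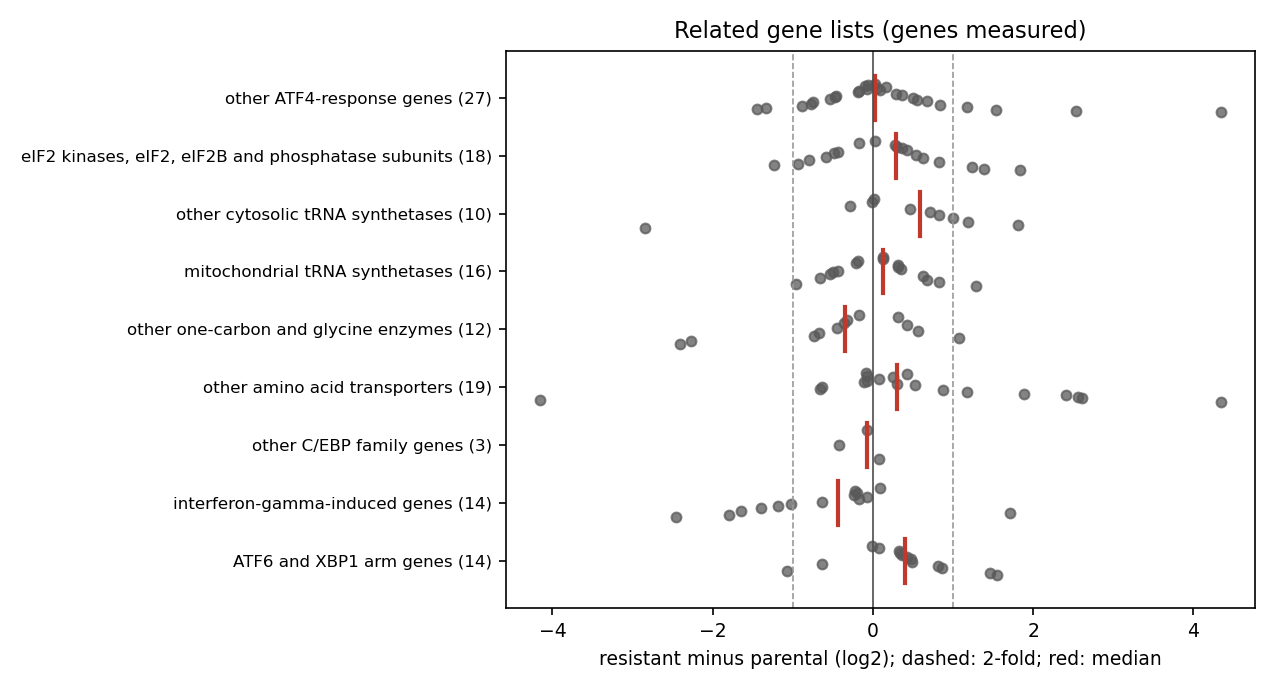
Difference of each measured gene (points, resistant minus parental, log2) in 9 related gene lists, with the number of genes measured in brackets, the list median as a red line and the 2-fold lines dashed; the height of a point within its row only separates points. Interferon-gamma-induced genes have the lowest median of these lists at -0.44, and other cytosolic tRNA synthetases the highest at 0.58.

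The other arms of the unfolded protein response, controlled by ATF6 and XBP1, had a median of 0.40 over 14 of 15 genes measured. Of these, 2 (14.3%) were at least 2-fold higher and 1 (7.14%) lower. Among all genes above the brightness level, which all 14 passed, 16.0% were higher and 14.1% lower by that much. XBP1, the transcription factor that IRE1 splices, was 2.93-fold higher at 9.64 resistant and 8.09 parental, and ERN1, the gene of IRE1, 2.75-fold higher at 7.31 resistant and 5.85 parental. CRELD2, a gene induced by endoplasmic reticulum stress, was 2.1-fold lower at 7.26 resistant and 8.33 parental, and HSPA5, the chaperone BiP, stood at 16.22 resistant and 15.36 parental.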

How the data were processed

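The authors deposited log2 expression values of 67528 transcript clusters, 1 column per array with 2 decimals. Per the submitters' processing notes they used Affymetrix Expression Console; version, normalisation and genome build are not given in any source used here, and the log2 scale was inferred from the values (1.95 to 19.63 resistant, 2.00 to 19.78 parental). The median gap between the sorted columns was 0.06 and the largest 0.28, so the arrays had nearly the same distribution, which removes differences in total RNA per cell. Probe intensities, detection calls and scan data were not used here, and the number of arrays limits the precision.

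A platform annotation gave 1 symbol for 23781 clusters, several for 1543 and none for 42204. Symbols of 21497 clusters were updated through gene identifiers to RefSeq (GRCh38.p14). Where a gene had several clusters, the 1 with the highest mean stood for it, which left 22465 genes. Fold changes are powers of 2 of the difference of the deposited log2 values; where 1 array lay at or below background, the fold was computed from the background level and given as "at least".

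Neighbours are the 12 named genes on each side in RefSeq order, which was the only use of its coordinates apart from those of the promoter sequences, also from RefSeq. The named genes are all members and, of each related list, up to 4 genes with the largest absolute difference among those above background. All genes of counts of 5 or fewer are added where listed. Further genes of these lists, such as PSMB9, RARS1 and EIF2AK2, are named outside this rule where a sentence compares or lists them. Members, lists, background level and rules were chosen with earlier results of these data known. The calculations were run with Python 3.11.15, pandas 2.3.3 and statsmodels 0.14.6 and tested on simulated data.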

Additional observations from a re-analysis of the deposited data

How the results depend on the processing

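The differences of the 33 members kept their side of the 2-fold threshold when arrays were centred on their medians or corrected by loess on mean expression. Centring moved members by at most 0.03, too little to change a call. Averaging over clusters could change no member, since each has 1 cluster. Raising values to the background level could change only ALDH1L2, which gained no call. Under quantile normalisation, which moved the median of all genes by 0.07, STC2 reached the threshold at 1.0, and the signs of SARS1 and CARS1 turned. The counts of 7 higher and 3 lower members became 12 and 7 at 1.5-fold, the 7 including ALDH1L2, whose resistant value was below background, and 3 members were higher at 3-fold. With the median of neighbouring genes above background subtracted, an alternative added after the data were seen, 3 members were at least 2-fold higher: TRIB3 (0.73), PSAT1 (0.94), PSPH (0.13) and NARS1 (0.31) fell short, and SLC3A2 (-1.42) joined those that were lower. Under it the signs of PHGDH, SHMT2, MTHFD2, AARS1, SARS1 and CARS1 turned. The median of the asparagine, serine and one-carbon enzymes, -0.32, was -0.07 with values raised to background and 0.00 over genes above the brightness level, both through ALDH1L2. Of the related lists, other amino acid transporters had a median of 0.30, but 0.41 under quantile normalisation, -0.05 with values raised to background and 1.52 over genes above the brightness level. No replicate could be left out. No paired analysis was possible because each line has 1 array. Signal near background limits DDIT3, VLDLR, SLC1A4 and ALDH1L2, which on at least 1 array were within the range of olfactory receptor genes up to their 99th percentile.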
